A study of Mus musculus with 15 samples.

Results

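The glutathione enzymes Mgst1, Mgst3, Gpx1, Gpx4, Gstm1, Gstm5, Gstp1, Gsr, Gclc and Gclm were followed in the optic nerve of mice after a sham operation, after nerve crush, and after crush in eyes given a virus for ciliary neurotrophic factor (CNTF). These 10 genes, of 14237 in the authors' table, were chosen by gene name. The rule itself used no measured value beyond presence in that table. It lists genes with at least 1 FPKM (a level per gene length and depth) in at least 4 libraries of some group. The names were picked with results of these data known, so no count over the 10 is independent support for a direction. All 10 were present in all 15 libraries, the lowest member value in any library being 4.54 FPKM, and all 10 entered the test.

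Adult C57BL/6J mice gave bulk optic nerve RNA in 3 groups of 5 biological replicates, numbered 2 to 6. The sham group had the nerve exposed without crush after AAV-null, an adeno-associated virus of serotype 2 with no transgene. The crush AAV-null group received the same empty virus, and the crush AAV-CNTF group a virus of the same serotype for a CNTF form that cells secrete. The virus was injected into the vitreous, and in the crush groups the nerve was crushed 2 weeks later and taken 7 days after that. The labels do not give these times for the sham group. All animals therefore carried a virus, no group was crushed without one, and sham with AAV-CNTF is not among the groups. No source used here names the promoter of the transgene, and the nerve is not the injected tissue.

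Glutathione is a small peptide of glutamate, cysteine and glycine that cells keep at high concentration as a reducing agent. Glutamate-cysteine ligase makes its precursor, peroxidases spend it to reduce peroxides, transferases couple it to reactive compounds, and glutathione reductase returns the oxidized form to use with NADPH. In nervous tissue astrocytes are known to hold much of the glutathione and to supply its precursors to neurons, while oligodendrocytes carry much iron and membrane lipid. Many genes of the system are known targets of the transcription factor Nrf2 (Nfe2l2), which binds antioxidant response elements, is held back by Keap1, and meets the repressor Bach1 at the same elements.

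The element's core was searched on both strands as TGACNNNGC, which reads GCNNNGTCA on the other strand, in the 250 bases before each RefSeq transcript start (GRCm38.p6). Of the 10 genes, 8 had a promoter entry, with 13 windows in all, and 3 of these 13 windows, each of a different gene, held a match. Gclc and Gsr had no entry. Over all 32851 windows the share with a match was 10.2%. The 3 matches belong to the membrane transferase Mgst1, the transferase Gstm5 and the ligase subunit Gclm, whose levels are given below. A difference in response between these genes was not tested. Each stretch is printed on the forward strand, which is the gene's own strand, with the matching bases in capitals. For Mgst1 the 30 bases are at chr6:138140461-138140490, which lies within the annotated gene, whose start is at 138140316. For Gstm5 the 217 bases before the annotated gene are at chr3:107895604-107895820, and for Gclm the 250 bases are at chr3:122245307-122245556.
Mgst1: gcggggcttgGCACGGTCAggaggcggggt
Gstm5: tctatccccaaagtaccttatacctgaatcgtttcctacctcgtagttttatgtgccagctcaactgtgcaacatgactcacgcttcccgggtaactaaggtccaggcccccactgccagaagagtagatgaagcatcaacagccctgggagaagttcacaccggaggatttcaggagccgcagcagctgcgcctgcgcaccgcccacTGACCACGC
Gclm: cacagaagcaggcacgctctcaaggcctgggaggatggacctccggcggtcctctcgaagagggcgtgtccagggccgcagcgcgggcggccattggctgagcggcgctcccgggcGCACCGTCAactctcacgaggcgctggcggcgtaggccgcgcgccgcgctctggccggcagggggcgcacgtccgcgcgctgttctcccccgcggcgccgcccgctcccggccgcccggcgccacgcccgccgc

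The Mgst1 match covers bases 56 to 48 before its RefSeq start, the Gstm5 match bases 42 to 34, and the Gclm match bases 134 to 126. The palindrome TTCNNNGAA, which STAT factors downstream of CNTF receptors are known to bind, had no match in the 13 member windows, against 7.02% of all windows. A match is a stretch of letters and not a measured site, and no match says only that these letters are not in these windows.

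Library totals over the listed genes ran from 19856688 to 29558293 expected counts, so counting error is small for every member and the spread between libraries sets the precision. Levels below are read counts scaled by library size (CPM), on TMM-scaled library sizes unless FPKM is named. A gene was called at a Benjamini-Hochberg adjusted p under 0.05 by edgeR's quasi-likelihood test over 14194 genes, and each fold change carries its standard error. Optic nerve identity was plain in the markers of myelin and of astrocytes, with the myelin gene Mbp at 30119 CPM and the astrocyte gene Gfap at 4299 CPM in sham nerves. Cntf mRNA in the nerve itself was 16.4 ± 5.04 CPM in sham, 5.29 ± 3.24 in crush AAV-null and 5.64 ± 1.64 in crush AAV-CNTF nerves (SD, n = 5 each). The comparisons with sham share the sham libraries, and the comparisons with crush AAV-null share those libraries too. In bulk RNA, fewer cells of a type and less RNA per cell cannot be told apart.

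Per length, the pi-class transferase Gstp1 and the peroxidases Gpx1 and Gpx4 were the highest of the members in every group. In sham nerves their mean levels were 326 ± 51.2, 250 ± 15.7 and 240 ± 38.6 FPKM, at percentiles 98.8, 98.3 and 98.2 of the listed genes, and their library ranges overlapped. Gstm1 followed at 133 ± 24.4 FPKM, with its highest library at 170 FPKM, below the lowest Gpx4 library at 176 FPKM. Gstm5 at 52.7 ± 8.71, Mgst1 at 43.4 ± 5.95 and Gclm at 36.7 ± 12.03 FPKM formed a middle level with overlapping libraries. Gclc at 12.6 ± 2.25, Mgst3 at 11.3 ± 2.64 and Gsr at 9.08 ± 1.70 FPKM were lowest and also overlapped. After crush with AAV-null Gsr stood above Gclc, at 15.01 ± 5.13 against 9.34 ± 1.12 FPKM, with libraries of 9.75 to 23.3 against 7.84 to 10.7 FPKM. After crush with AAV-CNTF Mgst1, at 39.0 ± 2.85 FPKM, stood above Gstm5 at 35.2 ± 5.99 FPKM, again with overlapping libraries.

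After crush with AAV-null, 5 of the 10 members fell and none rose against sham, by edgeR. The 5 were the ligase subunits Gclc and Gclm, the mu-class transferases Gstm1 and Gstm5, and the membrane transferase Mgst1. Of all genes tested, 12.9% were called lower and 14.7% higher in this comparison. No member was higher at an unadjusted p under 0.05, by limma-voom or by DESeq2. The median log2 fold change of the members was -0.50, against 0.00 over all genes, and 9 of the 10 estimates were below 0. On log2(FPKM + 1), where the median of all genes moved to 0.16, Gpx1 and Gclm turned to above 0 and 2 members were called lower and 1 higher. Median FPKM over the listed genes was 8.22 to 8.90 in sham and 9.44 to 10.48 in crush libraries. With the libraries scaled to one median the shift over all genes was -0.04, 4 members were called lower and none higher by limma, and Gpx1 and Gclm were at -0.08 and -0.02. With AAV-CNTF, crush against sham again gave 5 members lower and none higher by edgeR, against 14.3% of genes lower and 17.0% higher. These were Gclm, Gpx4, Gstm1, Gstm5 and Gstp1, with a median over the 10 of -0.42. At an unadjusted p under 0.05, by limma-voom and by DESeq2 the count was 6 lower and 0 higher, and on log2(FPKM + 1) it was 2 lower, or 4 lower with one median. For both comparisons with sham the shares of all genes above are those of edgeR at the adjusted threshold. Shares at an unadjusted p, by limma-voom and by DESeq2 are not given here, so these counts have no such share beside them. In the authors' deposited table a negative fold change with an adjusted p under 0.05 is listed for 6 members with AAV-null and for 4 with AAV-CNTF, both against sham. Of these, the authors' direction label marks only Mgst1 and Gstm1 as down-regulated with AAV-null, and only Gstm1 and Gstm5 with AAV-CNTF. The others carry the label no DE. The share of all genes that pass this cut in the authors' values is not given here.

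**Figure D1:**
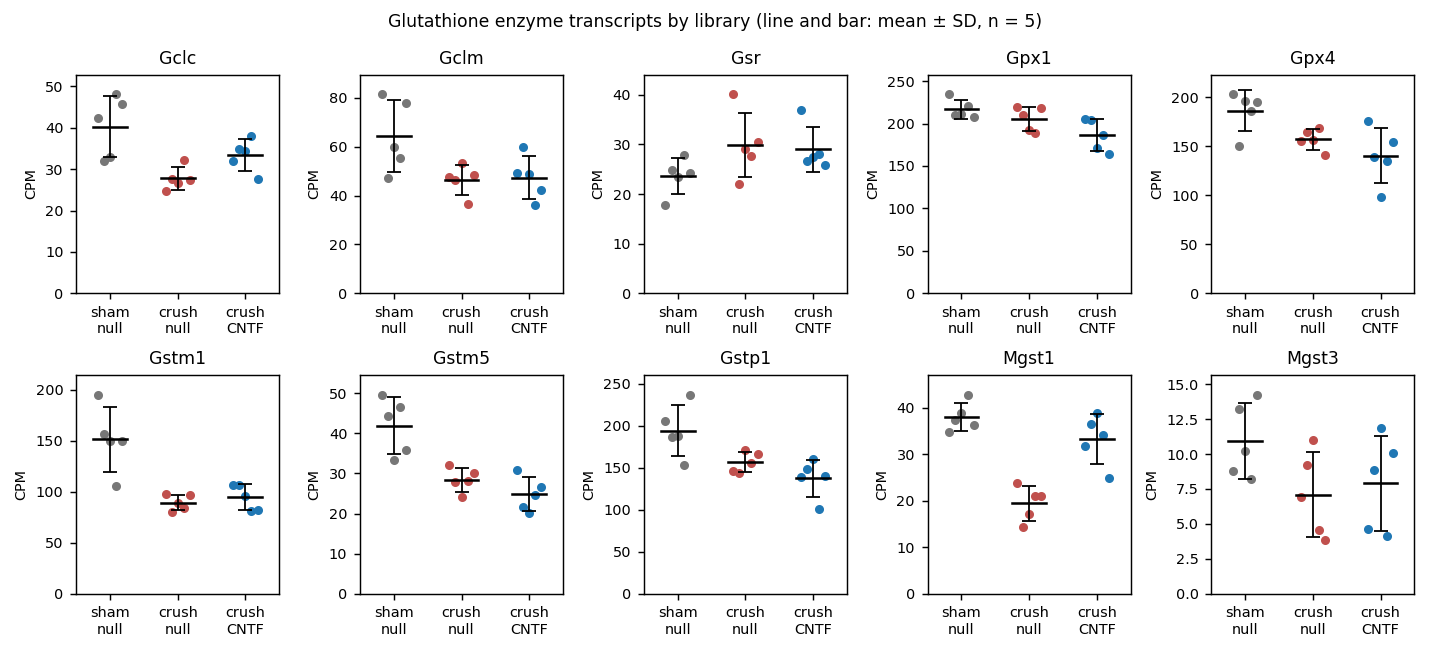
CPM of the 10 members on the vertical axes, 1 panel per gene and 1 point per library, for sham, crush AAV-null and crush AAV-CNTF (line and bars: mean ± SD, n = 5). Mgst1 in crush AAV-null lies between 14.3 and 23.8 CPM, below every sham and every crush AAV-CNTF library, while Gstm1 and Gstm5 are low in both crush groups.

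Glutamate-cysteine ligase, the rate-limiting enzyme of glutathione synthesis, is built from the catalytic subunit Gclc and the modifier subunit Gclm. Gclc was 42.3, 32.1, 33.0, 48.0 and 45.8 CPM in sham replicates 2 to 6. After crush with AAV-null it was 24.7, 27.7, 26.8, 32.3 and 27.4 CPM, and with AAV-CNTF 31.9, 35.0, 34.3, 38.0 and 27.7 CPM. The highest crush AAV-null library thus lay just above the lowest sham library, and the crush AAV-CNTF libraries overlapped both groups. Gclc fell by 0.53 ± 0.14 on the log2 scale after crush with AAV-null (edgeR adjusted p = 0.00763), from 40.2 ± 7.34 to 27.8 ± 2.78 CPM. The call ended on log2(FPKM + 1), where the change was -0.39 (limma adjusted p = 0.0706), and with a skeletal muscle marker covariate at -0.39 (edgeR adjusted p = 0.0935). With FPKM scaled to one median it was called, at -0.60 (limma adjusted p = 0.00833). Summed muscle markers were 21.6 to 225 CPM in sham, 14.4 to 72.4 in crush AAV-null and 6.67 to 46.1 in crush AAV-CNTF. Crush with AAV-CNTF against AAV-null gave 0.26 ± 0.14, with a 95% interval of -0.03 to 0.56 (edgeR adjusted p = 0.715), and against sham -0.27 ± 0.14 (edgeR adjusted p = 0.168).

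Gclm in sham replicates 2 to 6 was 81.4, 47.3, 59.9, 55.5 and 77.7 CPM. It was 47.4, 46.4, 53.2, 36.6 and 48.3 CPM after crush with AAV-null, and 49.2, 59.9, 49.0, 36.4 and 42.3 CPM with AAV-CNTF. The sham libraries spread widely and all 3 groups overlapped. The change against sham was -0.47 ± 0.16 with AAV-null (edgeR adjusted p = 0.0313) and -0.44 ± 0.16 with AAV-CNTF (edgeR adjusted p = 0.0391), and between the crush groups 0.03 ± 0.16, with a 95% interval of -0.30 to 0.36 (edgeR adjusted p = 0.987). Both calls were lost under several alternatives. With the skeletal muscle covariate the changes were -0.45 and -0.40 (edgeR adjusted p = 0.0969 and 0.182), and with only the 10 libraries compared the AAV-CNTF change was -0.44 (edgeR adjusted p = 0.0563). Leaving out 1 library, namely sham 2, sham 6, crush AAV-null 3 or crush AAV-null 5, gave an AAV-null change of -0.38, -0.40, -0.47 and -0.40, no longer called (edgeR adjusted p = 0.102, 0.0940, 0.0545 and 0.0873). With sham 2 or 6, or crush AAV-CNTF 2, 4, 5 or 6, left out, the AAV-CNTF change was between -0.35 and -0.46 and no longer called (edgeR adjusted p = 0.0529 to 0.122).

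Gclm also gave different orders on its deposited scales. Its FPKM values in replicates 2 to 6 were 43.3, 18.1, 36.7, 35.0 and 50.4 in sham, 32.5, 42.0, 40.2, 30.7 and 64.4 in crush AAV-null, and 36.2, 35.0, 22.6, 23.4 and 23.9 in crush AAV-CNTF. By FPKM the crush AAV-null group held the highest mean, and by CPM the sham group did. On log2(FPKM + 1) the change from sham to crush AAV-null was 0.21 (limma adjusted p = 0.606), and from crush AAV-null to crush AAV-CNTF -0.54 (limma adjusted p = 0.688). With the libraries scaled to one median these were -0.02 and -0.51 (limma adjusted p = 0.9748 and 0.704), and the change from sham to crush AAV-CNTF was -0.53 (limma adjusted p = 0.145), so the sign against sham did not turn there and the calls were still lost. The expected count of a library divided by its FPKM and its scale moves with the transcript length that FPKM divides by. Relative to the gene's mean, this ratio for Gclm was 0.942 to 1.51 in sham, 0.507 to 0.982 in crush AAV-null and 0.942 to 1.49 in crush AAV-CNTF. Its SD on the log2 scale, 0.38, was at percentile 77.4 of 11916 genes and the highest of the 10 members. Gclm is on chromosome 3 (122245557 to 122270732, plus strand, mm10), has 7 annotated transcripts, and overlaps the gene Gm17494 on the other strand, with which 3.50% of its transcript words of 75 bases are shared. Gm17494 was 52.8 ± 8.65, 54.4 ± 2.60 and 61.9 ± 10.2 CPM in sham, crush AAV-null and crush AAV-CNTF.

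**Figure D2:**
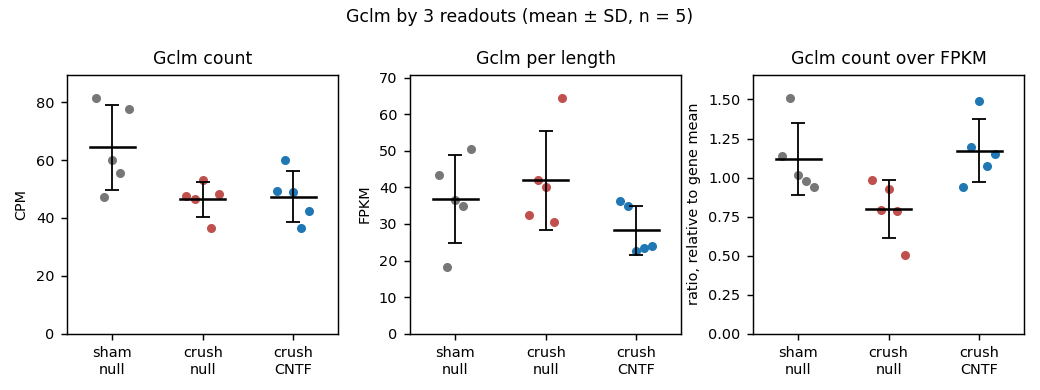
Gclm per library in 3 panels: CPM, FPKM, and the count over FPKM relative to the gene's mean (points: libraries, line and bars: mean ± SD, n = 5). The sham mean is highest by CPM (64.4) and the crush AAV-null mean by FPKM (41.9), where the count over FPKM is lowest, at 0.507 to 0.982.

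Glutathione reductase, Gsr, returns oxidized glutathione to its reduced form and was the member whose estimates lay above 0 after crush. It was 17.7, 24.8, 23.4, 27.9 and 24.3 CPM in sham replicates 2 to 6, against 40.0, 22.1, 29.1, 27.7 and 30.5 CPM in crush AAV-null and 36.9, 26.7, 27.5, 27.96 and 25.9 CPM in crush AAV-CNTF. The groups overlapped, and replicate 2 was the highest of each crush group and the lowest of the sham group. The difference from sham was 0.34 ± 0.17 with AAV-null (95% interval -0.01 to 0.69, edgeR adjusted p = 0.154) and 0.29 ± 0.17 with AAV-CNTF (95% interval -0.06 to 0.65, edgeR adjusted p = 0.205). By FPKM, on log2(FPKM + 1), the AAV-null value was 0.63 (limma adjusted p = 0.0488), and with one median 0.42 (limma adjusted p = 0.207). Without crush AAV-null replicate 2 the AAV-null difference was 0.21, and without crush AAV-CNTF replicate 2 the AAV-CNTF difference was 0.19 (edgeR adjusted p = 0.398 and 0.452). Without sham replicate 2 they were 0.25 and 0.20 (edgeR adjusted p = 0.327 and 0.416). Between the crush groups the difference was -0.04 ± 0.17 (edgeR adjusted p = 0.983), and 0.08 without crush AAV-null replicate 2.

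Gpx1, a selenium enzyme that reduces hydrogen peroxide in the cytosol and mitochondria, had the smallest difference among the members after crush with AAV-null. Its libraries were 234, 210, 212, 221 and 208 CPM in sham, 219, 210, 192, 189 and 218 CPM in crush AAV-null, and 205, 204, 171, 186 and 164 CPM in crush AAV-CNTF. The crush AAV-null libraries overlapped the sham libraries, and every crush AAV-CNTF library was below every sham library. The AAV-null difference was -0.08 ± 0.09 (95% interval -0.25 to 0.10, edgeR adjusted p = 0.567). The AAV-CNTF difference from sham was -0.22 ± 0.09 (edgeR adjusted p = 0.0553), and DESeq2 gave -0.23 (adjusted p = 0.0379). Without crush AAV-CNTF replicate 2 or 3 it was -0.26 in each case and called (edgeR adjusted p = 0.0349 and 0.0418), and with the replicate number as a block it was -0.22 (edgeR adjusted p = 0.0496). Its sign turned on log2(FPKM + 1), to 0.15 with AAV-null and 0.08 with AAV-CNTF, less than the shift of the median of all genes. With one median they were -0.08 and -0.13 (limma adjusted p = 0.571 and 0.325).

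Gpx4 reduces lipid hydroperoxides within membranes and is known for holding back ferroptosis, a death by lipid peroxidation. Sham replicates 2 to 6 were 203, 150, 196, 186 and 195 CPM, crush AAV-null 155, 164, 156, 169 and 141 CPM, and crush AAV-CNTF 175, 139, 98.4, 135 and 155 CPM. Sham replicate 3 was low among the sham libraries and crush AAV-CNTF replicate 4 was the lowest of all 15. Gpx4 fell by 0.41 ± 0.12 on the log2 scale from sham to crush AAV-CNTF (edgeR adjusted p = 0.0153), and the AAV-null difference was -0.24 ± 0.12 (95% interval -0.50 to 0.01, edgeR adjusted p = 0.157). The AAV-CNTF call was lost on log2(FPKM + 1), at -0.20 (limma adjusted p = 0.271), and held with one median, at -0.41 (limma adjusted p = 0.0234). Of its transcript words of 75 bases, 29.8% are shared with the pseudogene Gpx4-ps2, so its counts may be split or shared.

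The mu-class transferase Gstm1, an enzyme that astrocytes are known to express, stood at 195, 156, 150, 106 and 150 CPM in sham replicates 2 to 6. Crush AAV-null libraries were 97.5, 80.5, 88.6, 83.6 and 96.5 CPM, and crush AAV-CNTF libraries 107, 107, 95.6, 80.9 and 82.5 CPM. Every crush AAV-null library was below every sham library, and crush AAV-CNTF overlapped sham only through sham replicate 5. Over all genes, 10.1% lay wholly lower after crush with AAV-null, and among the members Gstm1, Gstm5 and Mgst1 did. Gstm1 fell by 0.76 ± 0.13 on the log2 scale with AAV-null (edgeR adjusted p = 0.000149) and by 0.68 ± 0.13 with AAV-CNTF (edgeR adjusted p = 0.000406). The crush groups differed by 0.08 ± 0.13, with a 95% interval of -0.19 to 0.36 (edgeR adjusted p = 0.961). With the pseudogene Gstm2-ps1, Gstm3 and Gm8834 it shares 11.7% of its words of 75 bases, and none of these was among the genes tested.

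Gstm5 lies in the same cluster of mu-class genes on chromosome 3 (107895821 to 107898686, plus strand). It was 49.6, 44.3, 33.3, 46.5 and 35.9 CPM in sham, 32.1, 27.96, 24.0, 28.2 and 30.04 CPM in crush AAV-null, and 30.8, 21.5, 20.2, 24.6 and 26.7 CPM in crush AAV-CNTF. Both crush groups lay wholly below sham, as did 11.2% of genes in the AAV-CNTF comparison. Gstm5 fell by 0.56 ± 0.15 with AAV-null (edgeR adjusted p = 0.00822) and by 0.76 ± 0.15 with AAV-CNTF (edgeR adjusted p = 0.000573), on the log2 scale, and the crush groups differed by -0.20 ± 0.15 (95% interval -0.52 to 0.12, edgeR adjusted p = 0.861). The AAV-null call was lost on log2(FPKM + 1), at -0.36 (limma adjusted p = 0.0749), and held with one median, at -0.59 (limma adjusted p = 0.00701). The antisense gene 4933431E20Rik overlaps the start of Gstm5, shares 7.47% of its words and was more abundant, at 117 ± 19.4, 55.3 ± 9.28 and 45.0 ± 7.29 CPM in sham, crush AAV-null and crush AAV-CNTF. No source used here gives the strand setting of the count, so reads of the pair may not be separate.

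Gstp1, the pi-class transferase used as a marker of oligodendrocytes, was 206, 187, 188, 153 and 237 CPM in sham replicates 2 to 6. It was 147, 143, 171, 155 and 166 CPM in crush AAV-null and 139, 148, 160, 101 and 140 CPM in crush AAV-CNTF. Sham replicate 5 was within the range of both crush groups. Gstp1 fell by 0.50 ± 0.12 on the log2 scale with AAV-CNTF (edgeR adjusted p = 0.0032), and with AAV-null the difference from sham was -0.31 ± 0.12 (edgeR adjusted p = 0.0628). The AAV-null difference was called without sham replicate 5, at -0.39 (edgeR adjusted p = 0.0227), without crush AAV-CNTF replicate 5, at -0.31 (edgeR adjusted p = 0.0299), with the replicate number as a block (edgeR adjusted p = 0.0454), with only the 10 libraries compared (edgeR adjusted p = 0.0440), and by DESeq2 (adjusted p = 0.0499). It lost the AAV-CNTF call on log2(FPKM + 1), at -0.31 (limma adjusted p = 0.0939), and kept it with one median, at -0.52 (limma adjusted p = 0.0129). Between the crush groups it was -0.19 ± 0.12 (95% interval -0.44 to 0.06, edgeR adjusted p = 0.803). Its near copy Gstp2 and the pseudogene Gstp-ps share 29.2% of its words of 75 bases, and Gstp2 was 11.7 ± 3.75, 7.29 ± 4.08 and 5.97 ± 1.35 CPM in sham, crush AAV-null and crush AAV-CNTF.

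The FPKM ratio of Gstp1 to Gstm1 was 2.04 to 3.08 in sham, 2.92 to 3.83 in crush AAV-null and 2.31 to 3.32 in crush AAV-CNTF, with medians of 2.40, 3.48 and 2.69. The transferase known from oligodendrocytes was thus high relative to the one known from astrocytes in crush AAV-null, with overlap between groups. Marker genes of both cell types were lower after crush. For mature oligodendrocytes, 12 of 13 tested markers fell with AAV-null and 12 with AAV-CNTF, with summed levels of 53976 to 68199 CPM in sham, 23626 to 32554 in crush AAV-null and 19722 to 28308 in crush AAV-CNTF. For astrocytes, 12 of 14 fell with AAV-null and 9 with AAV-CNTF, the sums being 12149 to 13556, 7810 to 10313 and 8360 to 11053 CPM. Their median log2 fold changes with AAV-null were -1.04 and -0.48. The part of these cell types in the levels of Gstm1, Gstm5 and Gstp1 was not tested.

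**Figure D3:**
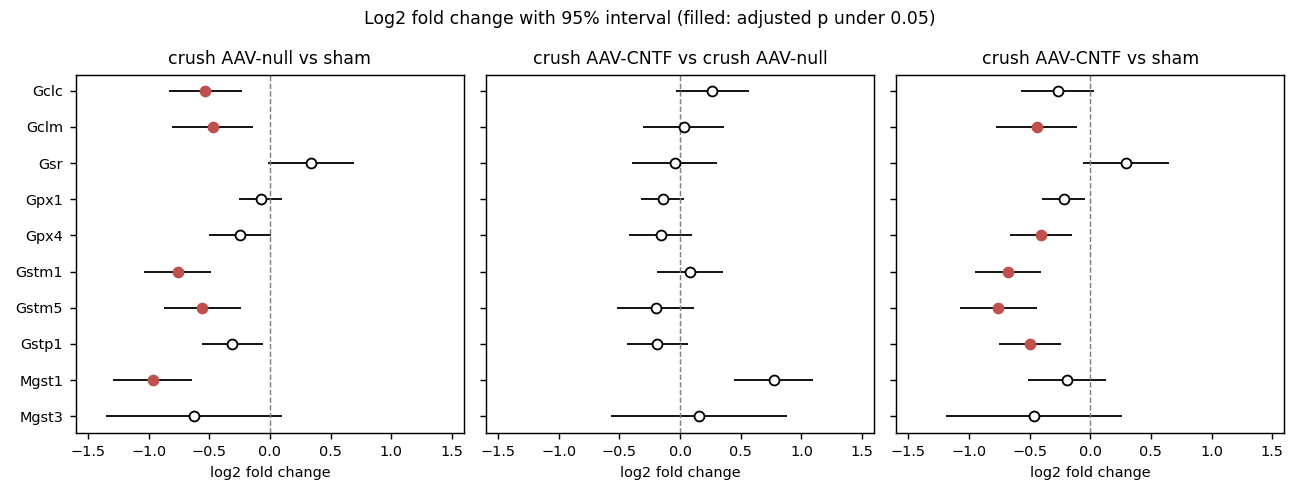
Log2 fold change of each member with its 95% interval on the horizontal axis, 1 panel per comparison (filled points: edgeR adjusted p under 0.05). In crush AAV-null against sham 5 members are filled below 0, in crush AAV-CNTF against sham 5, and in crush AAV-CNTF against crush AAV-null none, with Mgst1 farthest from 0 at 0.77.

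Mgst1, a membrane enzyme of the endoplasmic reticulum and outer mitochondrial membrane with transferase and peroxidase activity, was low in crush AAV-null and near sham in crush AAV-CNTF. In replicates 2 to 6 it was 34.9, 37.3, 38.9, 42.8 and 36.4 CPM in sham, 23.8, 14.3, 17.3, 21.0 and 21.0 CPM in crush AAV-null, and 31.7, 36.5, 39.0, 34.1 and 24.9 CPM in crush AAV-CNTF. Every crush AAV-null library lay below every library of both other groups, and the lowest crush AAV-CNTF library, replicate 6, was next above the highest crush AAV-null library, replicate 2. Mgst1 fell 1.96-fold after crush with AAV-null, from 38.1 ± 3.04 to 19.5 ± 3.71 CPM, a log2 fold change of -0.97 ± 0.16 (edgeR adjusted p = 7.43e-05), and this call held in all 27 alternatives, between -1.05 and -0.72. Crush AAV-CNTF, at 33.2 ± 5.39 CPM, was 1.71-fold above crush AAV-null, a log2 difference of 0.77 ± 0.16 with a 95% interval of 0.45 to 1.099 (edgeR adjusted p = 0.0645). Against sham it was -0.19 ± 0.15, with a 95% interval of -0.52 to 0.13 (edgeR adjusted p = 0.380).

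The difference in Mgst1 between the crush groups missed the threshold by edgeR and passed it by DESeq2, at 0.77 (adjusted p = 0.00527). In the authors' deposited table its adjusted p is 0.0289 and it is listed as up-regulated. Over the 27 alternatives the value was 0.58 to 0.86 and the adjusted p 0.00527 to 0.281. It was called with a skeletal muscle marker covariate, at 0.80 (edgeR adjusted p = 0.0434), and without crush AAV-CNTF replicate 6, at 0.86 (edgeR adjusted p = 0.0180). In that library ribosomal RNA genes and their near copies took 12.3% of the counts, against 6.99% to 7.47% in the other 4 of its group, 6.64% to 10.9% in crush AAV-null and 7.66% to 14.7% in sham. With Rn-named ribosomal, mitochondrial and the 10 most abundant genes left out, and all libraries in, the difference was 0.78 (edgeR adjusted p = 0.0599). No other member had an unadjusted p under 0.05 in this comparison, in which 8 of 14194 genes, 0.0564%, were called by edgeR and 7.69% had an unadjusted p under 0.05. By edgeR 0 of the 10 members were called, by limma-voom 0 and by DESeq2 1, and the median of the 10 was -0.01. Over all genes DESeq2 called 59 higher and 24 lower in this comparison. Wholly higher in crush AAV-CNTF than in crush AAV-null were 0.838% of genes and, of the members, Mgst1. Since Mgst1 gave its name to the selection with this contrast known, its levels here are a description.

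By FPKM, Mgst1 was 36.8, 51.6, 40.7, 47.2 and 40.5 in sham, 39.7, 22.8, 22.7, 23.6 and 23.1 FPKM in crush AAV-null, and 38.7, 40.4, 42.8, 37.8 and 35.2 FPKM in crush AAV-CNTF. Crush AAV-null replicate 2 stood apart from the other 4 libraries of its group and within the range of both other groups, whereas by CPM it was only the highest of its group. On log2(FPKM + 1) the crush AAV-CNTF difference was 0.58 (limma adjusted p = 0.268), and with one median 0.60 (limma adjusted p = 0.281). The gene is on chromosome 6 (138140316 to 138156755, plus strand), has 8 annotated transcripts, and shares none of its words of 75 bases with other genes.

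The 5 genes whose log2 CPM was most correlated with that of Mgst1 over the 15 libraries were Naaa (Pearson r 0.92), Adgrf5 (0.87), Lifr (0.85), Nectin3 (0.83) and Nfat5 (0.83). After group means were removed the coefficients were 0.81, 0.78, 0.36, 0.60 and 0.26, in that order. The points share the libraries and the 3 groups, and the genes were picked for these values. Lifr encodes the leukemia inhibitory factor receptor, which is also a signalling subunit of the CNTF receptor. It was 132, 117, 119, 104 and 136 CPM in sham, 81.0, 63.1, 76.2, 80.8 and 75.1 CPM in crush AAV-null, and 85.0, 99.7, 102, 108 and 94.0 CPM in crush AAV-CNTF. As for Mgst1, the crush AAV-null libraries of Lifr were below all others, and so were those of Nfat5. Against sham, Lifr was still called lower with AAV-CNTF, at -0.32 ± 0.10 (edgeR adjusted p = 0.0203), where Mgst1 was not called. Naaa, an acid amidase of lysosomes, was 57.1 ± 5.84, 32.8 ± 5.65 and 47.8 ± 12.8 CPM in sham, crush AAV-null and crush AAV-CNTF, and its crush groups overlapped. All 5 fell from sham to crush AAV-null, with log2 changes from -0.80 for Naaa to -0.41 for Nfat5 (edgeR adjusted p 2.48e-05 to 0.00600). Between the crush groups the differences were 0.54 for Naaa, 0.46 for Adgrf5, 0.38 for Lifr, 0.23 for Nectin3 and 0.22 for Nfat5 (edgeR adjusted p 0.202 to 0.692). The correlation that picked the 5 genes includes the group differences, so group changes like those of Mgst1 follow from the selection and are a description.

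**Figure D4:**
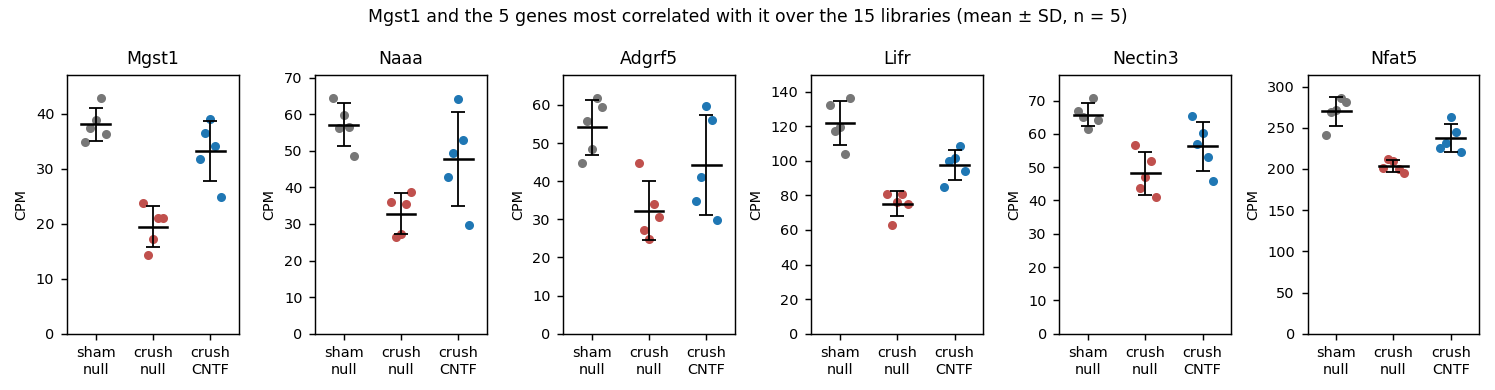
CPM of Mgst1 and the 5 genes most correlated with it, 1 panel per gene and 1 point per library, by group (line and bars: mean ± SD, n = 5). Each mean is highest in sham, lowest in crush AAV-null and between them in crush AAV-CNTF, for Mgst1 at 38.1, 19.5 and 33.2 CPM and for Lifr at 122, 75.3 and 97.7 CPM. The correlation that picked the 5 genes includes these group differences.

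Beside the difference in Mgst1 between the crush groups, none of the 14 astrocyte, 13 oligodendrocyte, 12 phagocyte or 9 endothelial markers tested was called by edgeR or limma-voom. An unadjusted p under 0.05 between the crush groups was reached by 7.69% of all genes. By that measure 2 astrocyte markers were higher, 2 oligodendrocyte and 8 phagocyte markers lower, and 1 endothelial marker higher and 1 lower. Of these lists DESeq2 called 2 phagocyte markers, Ctsb and Gpnmb, both lower. Summed phagocyte markers were 7706 to 9551 CPM in sham, 20618 to 28777 in crush AAV-null and 14348 to 24993 in crush AAV-CNTF. The endothelial sum was 457 to 515, 414 to 473 and 366 to 622 CPM, and the astrocyte sum is given above. The 2 most abundant markers were Apoe and Ctsd for phagocytes and Slc2a1 and Cdh5 for endothelium. In sham, crush AAV-null and crush AAV-CNTF, Apoe averaged 6474, 13105 and 11283 CPM and Ctsd, a lysosomal protease, 623, 5810 and 3778 CPM. In the same order Slc2a1 averaged 211, 131 and 104 CPM, and Cdh5, higher after crush, 76.8, 162 and 190 CPM. Of 8 tested T, B and plasma cell markers, the T cell genes Lck, Cd3e, Cd3g and Cd4 were higher with AAV-CNTF than with AAV-null at an unadjusted p under 0.05. Lck, a kinase of T cells, was 1.47 ± 0.885 CPM in sham, 0.0722 ± 0.161 in crush AAV-null and 4.23 ± 1.85 in crush AAV-CNTF. Its crush AAV-null libraries lay below all others, as for Mgst1. Lck is near the floor here, unlike Mgst1, and is given outside the rule of at least 5 CPM for named genes. Its difference between the crush groups was called by DESeq2 and not by edgeR (adjusted p = 0.0528) or limma-voom. The sum of this list, led by Igkc and Ighm, was 540 to 737, 196 to 524 and 139 to 509 CPM in sham, crush AAV-null and crush AAV-CNTF. At an unadjusted p under 0.05, 2 of 8 microglia markers and 2 of 8 NG2 glia markers were lower with AAV-CNTF. Of 9 axon and neuron markers 1 was higher by that measure, Thy1, and 1 lower, Unc13c, which DESeq2 also called lower. The microglia sums were 781 to 1018, 1968 to 2712 and 1621 to 2146 CPM. The part of these cells in the level of Mgst1 was not tested.

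Mgst3, the other membrane enzyme of the list, which can act on fatty acid hydroperoxides, was the lowest member by CPM and had the largest standard errors of the 10. It was 8.77, 13.2, 10.2, 8.20 and 14.2 CPM in sham, 6.89, 9.20, 10.98, 4.56 and 3.82 CPM in crush AAV-null, and 4.65, 8.86, 11.8, 4.10 and 10.1 CPM in crush AAV-CNTF. All 3 groups overlapped. The difference from sham was -0.63 ± 0.35 with AAV-null (95% interval -1.35 to 0.10, edgeR adjusted p = 0.205) and -0.47 ± 0.35 with AAV-CNTF (95% interval -1.19 to 0.26, edgeR adjusted p = 0.345). Between the crush groups it was 0.16 ± 0.35, with a 95% interval of -0.57 to 0.88 (edgeR adjusted p = 0.971), and -0.03 without crush AAV-CNTF replicate 4. The estimate for Mgst1, 0.77, lies within this interval. A direct test of the difference between Mgst1 and Mgst3 was not made.

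Within groups the members did not move as 1 block. After group means were removed, the log2 CPM of Gstp1 and Gclm had a Pearson r of 0.66 over the 15 libraries, Gstm1 and Gstp1 0.59, Gstm1 and Gclm 0.59, and Mgst1 and Gsr 0.58. The lowest was -0.53, for Mgst3 and Gstm5. These values share library and depth and are a description.

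Among 110 tested genes of the wider glutathione and redox lists that are no members, 30 rose and 12 fell after crush with AAV-null. With AAV-CNTF against sham 29 rose and 15 fell. The median log2 changes of the 110 were 0.05 and 0.08. Over all genes tested, 14.7% were called higher and 12.9% lower with AAV-null, and 17.0% and 14.3% with AAV-CNTF. The list counts below are to be read beside these same shares. Between the crush groups edgeR, limma-voom and DESeq2 each called 0 of the 110. Of all genes edgeR called 0.0564% there, and DESeq2 called 59 higher and 24 lower. At an unadjusted p under 0.05, 6 of the 110 were higher and 1 lower, against 7.69% of all genes in either direction. These lists were written with earlier results of these data known. Some lists hold members, which count in the numbers below, and genes given by name alone were named after their values were seen.

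**Figure D5:**
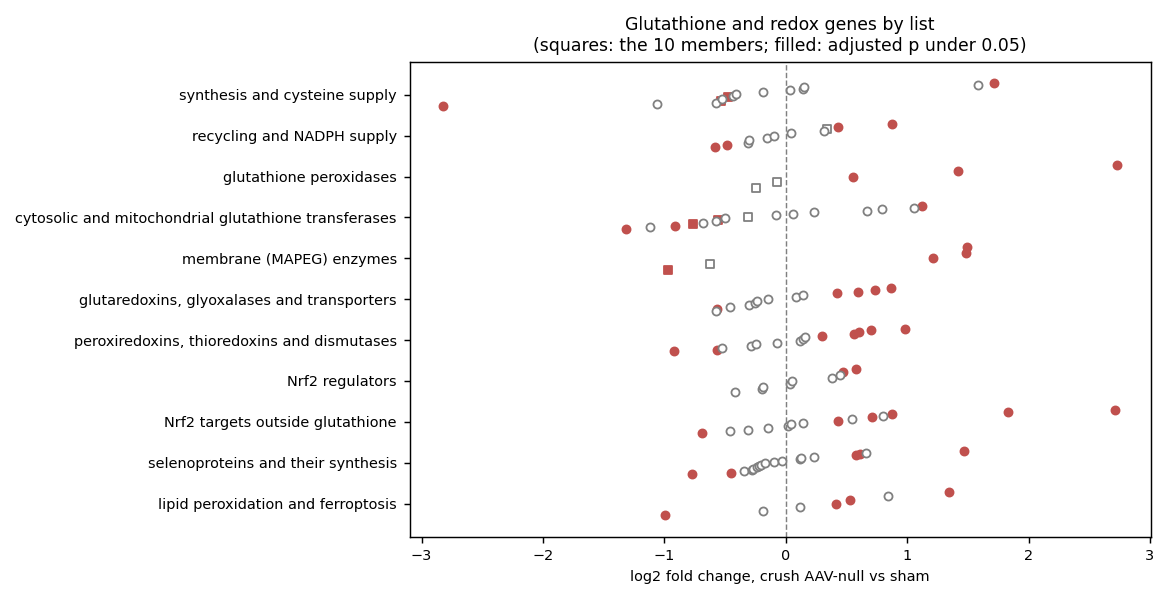
Log2 fold change of crush AAV-null over sham for each tested gene of 11 lists, 1 row per list (squares: the 10 members, circles: other genes, filled: edgeR adjusted p under 0.05). Peroxidases outside the members lie to the right, up to 2.73 for Gpx3, and the transferases reach both sides, from -1.31 for Gstm7 to 1.12 for Hpgds.

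In synthesis and cysteine supply, 1 of 14 genes rose and 3 fell after crush with AAV-null, namely Gclc, Gclm and Ggt1. Anpep, an aminopeptidase that can split the cysteine-containing dipeptide of glutathione breakdown, rose from 50.7 ± 12.9 to 167 ± 32.2 CPM and was 190 ± 33.0 CPM with AAV-CNTF (log2 fold change 1.72 ± 0.17 with AAV-null, edgeR adjusted p = 2.44e-07). Gss, the synthetase of the second step, was 23.9 ± 7.36, 16.7 ± 2.19 and 19.8 ± 5.18 CPM in sham, crush AAV-null and crush AAV-CNTF and was not called (edgeR adjusted p = 0.0737 with AAV-null). Slc7a11, the cystine transporter, was 78.5 ± 32.8, 87.0 ± 26.2 and 74.5 ± 25.9 CPM and was not called (edgeR adjusted p = 0.755 with AAV-null). Cbs, which starts the path from homocysteine to cysteine, was lower with AAV-CNTF than in sham, at 3.30 ± 1.34 against 8.51 ± 7.61 CPM (log2 fold change -1.37 ± 0.50, edgeR adjusted p = 0.0402).

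In recycling and NADPH supply, 2 of 11 rose, Pgd and Txnrd1, and 2 fell, Idh2 and Tkt, with AAV-null. Pgd, a pentose phosphate enzyme that makes NADPH, rose from 37.6 ± 4.12 to 69.1 ± 15.4 CPM, and mitochondrial Idh2, another NADPH source, fell from 60.4 ± 6.48 to 40.2 ± 7.06 CPM (edgeR adjusted p = 0.000333 and 0.00295). By edgeR all 3 tested peroxidases that are no members rose in both comparisons with sham, and neither Gpx1 nor Gpx4 was called higher in either. Gpx3, the secreted peroxidase, rose from 14.7 ± 5.47 to 97.2 ± 14.3 CPM with AAV-null and was 77.9 ± 12.8 CPM with AAV-CNTF (log2 fold change with AAV-null 2.73 ± 0.19, edgeR adjusted p = 2.53e-09). The remaining 2 were Gpx7 and Gpx8, of which limma-voom did not call Gpx8 with AAV-null.

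Of 16 tested cytosolic and mitochondrial transferases, 1 rose and 4 fell with AAV-null, the 4 being Gstm1, Gstm5, Gstm7 and Gstk1. Gstm7, a mu-class neighbour of Gstm1 and Gstm5, fell from 46.8 ± 9.71 to 18.8 ± 3.74 CPM, and was 24.5 ± 7.04 CPM with AAV-CNTF (log2 fold change with AAV-null -1.31 ± 0.20, edgeR adjusted p = 3.64e-05). Gstm2, of the same cluster, was 7.45 ± 4.07, 15.5 ± 6.99 and 16.003 ± 7.10 CPM, with overlapping groups. It was called higher with AAV-CNTF against sham (1.104 ± 0.42, edgeR adjusted p = 0.0485) and not with AAV-null (edgeR adjusted p = 0.0639). DESeq2 called Gstm2 higher in both comparisons with sham and limma-voom in neither, so this upward call in the cluster depended on the tool. Gstk1, the mitochondrial and peroxisomal kappa-class enzyme, fell from 16.1 ± 3.61 CPM in sham to 6.86 ± 2.22 CPM with AAV-CNTF (-1.23 ± 0.27, edgeR adjusted p = 0.00145). Hpgds, the hematopoietic prostaglandin D synthase of microglia and mast cells, rose from 13.4 ± 2.74 to 29.0 ± 5.05 CPM with AAV-null (1.12 ± 0.21, edgeR adjusted p = 0.000357).

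Mgst1 and Mgst3 belong to a membrane family whose other members serve eicosanoid synthesis. Ptges, the prostaglandin E synthase, was 4.95 ± 3.79, 13.9 ± 4.93 and 14.2 ± 7.15 CPM and rose with AAV-null (1.49 ± 0.44, edgeR adjusted p = 0.0136). Alox5ap, the helper protein of 5-lipoxygenase, was 5.53 ± 2.78, 12.8 ± 5.32 and 16.7 ± 3.16 CPM and rose with AAV-CNTF against sham (1.59 ± 0.35, edgeR adjusted p = 0.00139). Of the 5 tested, Ptges, Alox5ap and Ltc4s rose and Mgst1 fell with AAV-null. The eicosanoid enzymes are known from leukocytes, and 12 of 12 phagocyte and 6 of 8 microglia markers rose in the same comparison. Their part in these levels was not tested.

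Nfe2l2, which encodes Nrf2, rose from 88.4 ± 12.5 CPM in sham to 123 ± 27.4 CPM with AAV-null (0.47 ± 0.13, edgeR adjusted p = 0.0110) and was 131 ± 12.04 CPM with AAV-CNTF. Bach1, a repressor at the same elements, rose from 44.7 ± 6.16 to 66.6 ± 6.43 CPM (0.58 ± 0.12, edgeR adjusted p = 0.000681), and Keap1 was 42.9 ± 5.67, 44.3 ± 7.61 and 39.1 ± 9.19 CPM and was not called (edgeR adjusted p = 0.870 with AAV-null). Among 14 known Nrf2 targets outside glutathione metabolism, 5 rose, Ftl1, Pgd, Txnrd1 and Ugdh beside Hmox1, and 1 fell with AAV-null. Hmox1, heme oxygenase, rose from 7.59 ± 2.14 to 49.9 ± 23.4 CPM (2.71 ± 0.29, edgeR adjusted p = 4.49e-07), and the ferritin chain Fth1 fell from 7558 ± 674 to 4673 ± 942 CPM (-0.69 ± 0.14, edgeR adjusted p = 0.000513). Gclc and Gclm, which are also known Nrf2 targets, fell in this comparison, as given above with the alternatives that end their calls.

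Of 14 peroxiredoxins, thioredoxins and dismutases, 5 rose (Prdx1, Prdx2, Prdx4, Prdx5 and Txn1) and 2 fell (Prdx6 and Sod2) with AAV-null. Prdx6, a peroxiredoxin that uses glutathione and is abundant in astrocytes, fell from 717 ± 74.5 to 378 ± 58.0 CPM and was 379 ± 45.4 CPM with AAV-CNTF (log2 fold change with AAV-null -0.92 ± 0.11, edgeR adjusted p = 2.63e-06). Prdx4, the peroxiredoxin of the endoplasmic reticulum, rose from 11.4 ± 2.07 to 22.4 ± 4.06 CPM (0.98 ± 0.18, edgeR adjusted p = 0.000303), and Prdx5 was 28.7 ± 4.97 CPM in sham and 52.8 ± 3.83 CPM with AAV-CNTF (0.88 ± 0.14, edgeR adjusted p = 4.81e-05). Of 13 glutaredoxins, glyoxalases and transporters Esd, Glrx, Glrx3 and Slc25a39 rose and Glo1 fell with AAV-null by edgeR, while DESeq2 did not call Glrx3. Glo1, the glyoxalase that uses glutathione to clear methylglyoxal, fell from 78.2 ± 8.47 to 52.9 ± 3.81 CPM (-0.56 ± 0.10, edgeR adjusted p = 0.000245). Slc25a39, the carrier that brings glutathione into mitochondria, rose from 40.5 ± 4.91 to 73.9 ± 10.8 CPM (0.87 ± 0.13, edgeR adjusted p = 4.17e-05).

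Gpx1 and Gpx4 are selenoproteins, and of 18 genes of selenoproteins and their synthesis 3 rose (Msrb1, Selenoh and Selenon) and 2 fell (Secisbp2 and Selenow) with AAV-null. Selenoh rose from 5.97 ± 2.37 to 16.5 ± 2.49 CPM (1.46 ± 0.28, edgeR adjusted p = 0.000408). Secisbp2, whose product binds the element that directs selenocysteine insertion, fell from 19.4 ± 2.91 to 11.4 ± 0.833 CPM and was 11.7 ± 1.24 CPM with AAV-CNTF (with AAV-null -0.77 ± 0.18, edgeR adjusted p = 0.00201). Of 7 lipid peroxidation and ferroptosis genes Acsl4, Alox5 and Lpcat3 rose and Tfrc fell with AAV-null. Alox5, a lipoxygenase of leukocytes, was 3.88 ± 2.54, 9.88 ± 3.41 and 8.27 ± 2.40 CPM (with AAV-null 1.35 ± 0.40, edgeR adjusted p = 0.0152), and Tfrc, the transferrin receptor, fell from 43.5 ± 7.58 to 21.8 ± 4.03 CPM and was 29.9 ± 5.45 CPM with AAV-CNTF (with AAV-null -0.998 ± 0.17, edgeR adjusted p = 0.000132).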

How the data were processed

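RNA from optic nerves was measured in 15 libraries, 5 in each of 3 groups, and the design calls the replicates biological. Per the labels' protocols, ribosomal RNA was depleted and 2 library kits are named, without saying which libraries used each. Per the submitters' processing notes, Trimmomatic 0.32, STAR 2.5.3a, RSEM 1.2.31, R 3.2.3, DESeq2 without a version and the build mm10 were used. No source used here names the annotation or the strand setting.

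The authors deposited an expected count per gene and library, per the file headers. They also deposited FPKM values, a log2 fold change and an adjusted p-value for each pair of groups, per the file headers. Every one of the 14237 listed genes reaches 1 FPKM in 4 or more libraries of a group, and totals cover listed genes only.

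Of the expected counts, 13.7% to 18.3% per library were not whole and were rounded. They were fitted in R 4.3.3 with edgeR 4.0.16 (TMM, filterByExpr by group, quasi-likelihood, 1 mean per group, all 15 libraries, 12 residual degrees of freedom; biological coefficient of variation 0.37), with Benjamini-Hochberg adjustment over 14194 genes per comparison. FPKM was tested with limma 3.58.1 on log2(FPKM + 1), and a fold change on that scale understates the change of low genes. DESeq2 was version 1.42.0. The script was checked on simulated counts. Correlations used log2 CPM, prior count 2. GENCODE M21 (GRCm38) gave gene positions and matched 14215 identifiers without their version, and promoters from RefSeq.

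Members and lists were chosen with earlier results of these data known. Named beside the members were, per list, direction and comparison, the called gene with the largest log2 fold change and a mean of at least 5 CPM, then Nfe2l2, Keap1, Bach1, Gss and Slc7a11, the 5 genes most correlated with Mgst1, and the 2 most abundant markers of a cell type where a marker list is described. Some genes that the rule selects are given by count only, and some, such as Lck, are given outside it. Libraries with the same replicate number had correlations of -0.05 to 0.11 over 15 pairs, of which 1 was above 0.1, and were not treated as paired. Between libraries of a group, chi-square per degree of freedom was 40.7 to 154, so none were duplicates. Alternatives were other normalizations and filters, the 10 libraries compared, a replicate block, a skeletal muscle covariate, abundant genes left out, limma-voom, limma on FPKM, DESeq2 and each library left out. Scaling FPKM to one median was added after the data were seen.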

Additional observations from a re-analysis of the deposited data

Results flagged for a closer look

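In crush AAV-CNTF nerves, replicate 2 had 36.9 CPM of Gsr, the glutathione reductase, against 25.9 to 27.96 CPM in the other 4 libraries. The gap to the nearest library was 0.813 of the group's range, above Dixon's 95% critical value. It was the only such case among 30 sets, each of 1 member in 1 group, and chance gives about 1 in 20. The difference between the crush groups, -0.04, and that from sham, 0.29, were not called with it (edgeR adjusted p = 0.983 and 0.205). Without it the difference from sham was 0.19 (edgeR adjusted p = 0.452).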

How the results depend on the processing

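Over 27 alternatives, 763 of 810 member values kept direction and side of the threshold, 21 lost the call, 17 gained it and 9 turned sign. Those that turned were on log2(FPKM + 1) Gpx1 against sham (0.15 with AAV-null, 0.076 with AAV-CNTF) and Gclm (0.21 in crush AAV-null against sham, -0.54 between the crush groups, and -0.51 there with one median). Between the crush groups with 1 library left out, Gclm was -0.070 to 0.11, below 0 without crush AAV-CNTF replicate 3 or crush AAV-null replicate 5 (-0.044). Mgst3 was -0.033 to 0.37, below 0 without crush AAV-CNTF replicate 4, and Gsr -0.14 to 0.084, above 0 without crush AAV-null replicate 2. The cause was not tested.

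Calls between the crush groups, 6 genes higher and 2 lower, moved most. Higher and lower genes were 1 and 0 with the 10 libraries compared, 17 and 12 with the muscle covariate, 59 and 24 by DESeq2, and 3 and 0 on log2(FPKM + 1), with or without one median; limma-voom gave 3 higher. Leaving out 1 library gave 1 to 38 higher, the highest without crush AAV-CNTF replicate 6, and 0 to 3 lower. Members higher were 1 with the muscle covariate and by DESeq2, and 0 to 1 with a library left out. Members lower in crush AAV-null against sham were 3 with the muscle covariate. On log2(FPKM + 1) the counts were 2 members lower and 1 higher, and 862 genes lower, where edgeR on counts gave 1825. In crush AAV-CNTF against sham they were 2 members and 1007 genes lower, and 1343 genes lower with the muscle covariate, where edgeR gave 2031. FPKM moved the share of calls that were higher from 53.3% to 73.1% with AAV-null and from 54.2% to 71.9% with AAV-CNTF against sham. With one median these shares were 48.2% and 51.7%, 4 members were lower in each of these comparisons, and the calls of Gclc, Gstm5, Gpx4 and Gstp1 were back, while Gclm was not called. Leaving out 1 library gave 4 to 6 members lower in each comparison with sham.

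With the replicate number as a block, 14 genes were higher between the crush groups and 6 members lower in each comparison with sham, Gstp1 being gained with AAV-null (edgeR adjusted p = 0.0454) and Gpx1 with AAV-CNTF (edgeR adjusted p = 0.0496). The numbers showed no pairing of libraries. At these depths the spread between libraries, not counting, limits the intervals.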
